A study of Mus musculus with 6 samples.

Results

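The genes described here are the colony-stimulating factors (CSFs) and their receptors, 8 of the 23282 rows of the count files. They were picked by gene symbol as 4 ligands (*Csf1*, *Il34*, *Csf2* and *Csf3*) and 4 receptors (*Csf1r*, *Csf2ra*, *Csf2rb* and *Csf3r*), and all 8 had 1 row each. RNA of liver sinusoidal endothelial cells (LSECs), the fenestrated endothelium of the liver sinusoids, was sequenced in 6 libraries, 3 per genotype, from Txnip-/- and WT mice. The Txnip-/- mice lack *Txnip* in every cell and not in endothelium alone, and both genotypes are on the C57BL/6J background. LSECs were taken from collagenase-perfused livers by a density gradient and anti-CD146 beads, so the cells left behind by the beads were the source of Kupffer cells in the same study. Age, sex, diet and time in culture of the sequenced cells were not given in the sources used here, and neither was whether each library came from its own mouse. Spread between libraries may therefore be technical. The question asked of these genes was whether ligand and receptor transcripts moved apart between the genotypes. The list was drawn up with the genotype differences of these libraries known, so the values of the 8 genes below are a description and carry no test of their own.

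CSFs are secreted or membrane-bound proteins that keep myeloid cells alive and make them divide and mature. CSF1 and IL-34 are unrelated in sequence but bind the same receptor tyrosine kinase, CSF1R, on which Kupffer cells, the resident macrophages of the sinusoid, depend. Endothelial and stellate cells are known sources of CSF1 in the liver. CSF2 signals through a specific alpha chain (*Csf2ra*) joined to the common beta chain (*Csf2rb*), which drives JAK2 and STAT5, and CSF3 acts on neutrophils through CSF3R.

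Short promoter stretches are shown because the DNA beside the genes is where known regulators of this family act, NF-kB at ligand genes and the myeloid factor PU.1 at receptor genes. RefSeq start-site windows on GRCm38.p6, 250 bases before to 50 after the start, were at hand for 4 of the 8 genes (*Csf1*, *Csf2*, *Csf2ra* and *Csf3r*). Capitals mark the matched word, and each stretch is read 5′ to 3′ on the strand of its gene.
Csf1, NF-kB word on the opposite strand, chr3:107760606-107760631, minus strand: gccttgagGGAAAGTCCCtaggggcc
Csf2ra, first of a pair of PU.1 words, chr19:61228419-61228440, minus strand: ctgcagatGAGGAAgaggaagc
Csf3r, PU.1 word, chr4:126024565-126024586, plus strand: cttcctgaGAGGAAggggctgt
The *Csf1* word lies at -154 to -145 from the start and, read on the other strand, matches the NF-kB consensus. That consensus was found on either strand of 4.51% of 32851 promoter windows of this length, and 0.155% held these 10 letters exactly. The PU.1 core GAGGAA was in the *Csf2ra* window at -14 to -9 and at -8 to -3, and in the *Csf3r* window at -86 to -81. It was held by 28.3% of all windows, so its presence sets neither gene apart. The AP-1 word TGANTCA (7.81% of windows) and the STAT word TTCNNNGAA (8.3%) were in none of the 4 windows. The *Csf2* window held no match to the NF-kB consensus or the PU.1 core either. That window (chr11:54249850-54250149) lies wholly upstream of the *Csf2* gene as annotated by GENCODE, which starts at 54249667 on the minus strand. It may therefore miss the bases next to that start. A match is a run of letters and not a measured binding site.

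The libraries held between 9147764 and 10193952 counts, and the detection floor used here, 3 counts, corresponds to 0.294 to 0.328 CPM (a gene's counts scaled to a common library size). *Txnip* had 269, 216 and 191 counts in Txnip-/- against 1901, 2019 and 1994 in WT libraries, matching all 6 labels. Endothelial identity was checked with a list of 18 LSEC and endothelial markers, all of which passed the filter on low counts. *Pecam1*, a junction protein of all endothelium, stood at 885 ± 62.8 CPM in Txnip-/- and 934 ± 142 CPM in WT LSECs (mean ± SD, n = 3 libraries, as for all levels below). The sinusoidal lectin *Clec4g* was low, at 7.64 ± 1.5 and 8.4 ± 1.03 CPM, whereas the hyaluronan receptor *Lyve1* reached 1698 ± 255 and 2927 ± 1228 CPM. *Lyve1* stood at 3482 and 3780 CPM in WT replicates 1 and 2. WT replicate 3, at 1520 CPM, lay within the Txnip-/- range of 1475 to 1976 CPM, so the *Lyve1* difference rested on the other WT libraries. In WT replicates 1 and 2 the ribosomal RNA row *Rn45s* took 10% and 9.68% of counts, and in the other 4 libraries 16.8% to 18.6%. Counts over all genes also set WT replicate 3 closer to each Txnip-/- library (chi-square per degree of freedom 13.3 to 17.2) than to WT replicates 1 and 2 (36.9 and 40), which differed from each other by 3.93. Results that rest on these 2 libraries are given with and without them.

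Of the 8 genes, 5 passed the filter on low counts and 2 were called by edgeR's quasi-likelihood fit over all genes (Benjamini-Hochberg adjusted p below 0.05 with at least a 1.3-fold difference), *Csf1* as higher and *Csf1r* as lower in Txnip-/- LSECs. The same rule called 1.44% of the 11583 genes tested, 0.509% as higher and 0.932% as lower. In 3 of the 5, *Csf1*, *Il34* and *Csf1r*, the levels of the genotypes did not overlap. Such separation was seen in 17.4% of the genes tested, 8.43% with higher and 8.94% with lower levels in Txnip-/- LSECs. Both ligands above the filter, *Csf1* and *Il34*, had higher means in Txnip-/- LSECs, and the 3 receptors above it, *Csf1r*, *Csf2ra* and *Csf2rb*, had lower means. *Csf2*, *Csf3* and *Csf3r* stayed below the filter. Because *Il34* passed the filter mainly through the genotype in which it was higher, these counts describe the list and nothing is read from them. Over all genes tested the median log2 fold change was within 0.001 of 0, with 5791 genes higher and 5792 lower.

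**Figure D1:**
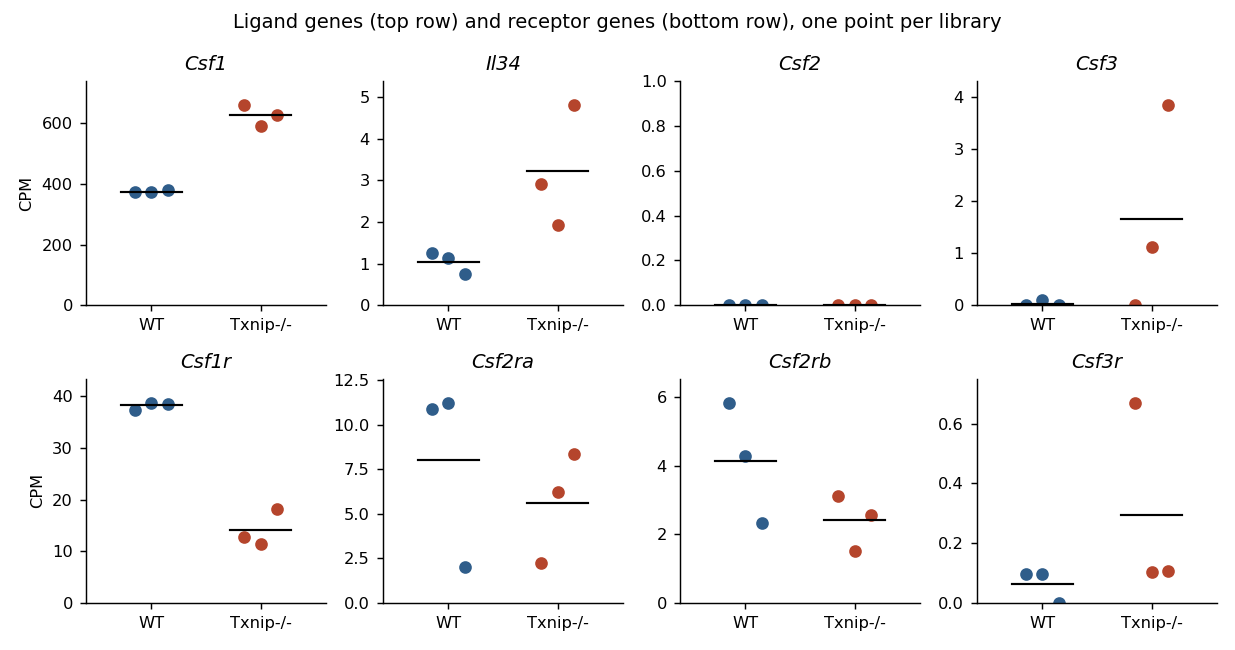
Level of each CSF ligand gene (top row) and receptor gene (bottom row) in CPM on linear axes from 0, with 1 point per library, 3 per genotype, and a line at the mean. The genotypes are clearly separate for Csf1 (373 to 379 CPM in WT, 591 to 661 CPM in Txnip-/-) and Csf1r (37.4 to 38.8 and 11.4 to 18.3 CPM), while Csf2 had no counts and Csf2ra and Csf2rb overlapped.

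*Csf1* encodes macrophage colony-stimulating factor and spans bases 107741048 to 107760469 of chromosome 3, minus strand (GRCm38, GENCODE M21). Its longest coding transcript has 9 exons with 2114 bases of 3′ untranslated region, and no exon of another gene overlaps the last 500 bases of its coding transcripts, where 3′ tags fall. *Csf1* had 5917, 5802 and 5867 counts in Txnip-/- against 3840, 3920 and 3581 in WT libraries. Thus the lowest Txnip-/- value was well above the highest WT value, and the spread within each genotype was small beside the gap between them. Levels were 626 ± 34.6 CPM in Txnip-/- and 375 ± 2.99 CPM in WT LSECs. This is a 1.67-fold difference, or 0.74 on the log2 scale with a standard error of 0.079. The value stayed between 0.66 and 0.78 over 16 alternative settings, and *Csf1* was called in each of them. Against WT replicate 3 alone, by a term for WT replicates 1 and 2, it was 0.73.

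*Csf1* was also counted against endothelial genes of the same library. Per 100 tags of *Pecam1* there were 76.2, 61.9 and 75.3 tags of *Csf1* in Txnip-/- against 43.4, 44.3 and 34.5 in WT libraries. Per 100 tags of *Cdh5*, the endothelial cadherin, there were 64.1, 50.6 and 62.3 against 34.4, 37.2 and 31.3. Neither ratio overlapped between the genotypes, and the mean differences were 0.81 (standard error 0.15) and 0.78 (standard error 0.13) on the log2 scale. *Pecam1* and *Cdh5* themselves had log2 fold changes of -0.077 (adjusted p = 0.851, edgeR) and -0.042 (adjusted p = 0.912, edgeR). Both ratios therefore largely repeat the difference of *Csf1* itself and add no separate support. Against the summed 18 endothelial markers, which all had lower means in Txnip-/- LSECs, the difference was 1.11 (standard error 0.12).

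*Il34*, the second ligand of CSF1R, lies on chromosome 8 from 110741829 to 110805924 on the minus strand. It was rare, with 26, 19 and 45 counts in Txnip-/- against 13, 12 and 7 in WT libraries. The genotypes did not overlap, but the lowest Txnip-/- library was only 6 counts above the highest WT library. Levels were 3.22 ± 1.46 and 1.05 ± 0.275 CPM, and the log2 fold change of 1.6 had a standard error of 0.65. *Il34* was not called by the fit or by any of the 16 alternatives, which gave values from 1.19 (without Txnip-/- replicate 3) to 2.10 (against WT replicate 3 alone).

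The ligands of the other CSF receptors were at or near the floor. *Csf2* (chromosome 11, 54247271 to 54249667, minus strand), which encodes GM-CSF, had 0 counts in all 6 libraries, which allows a level of up to 0.294 to 0.328 CPM per library for counting error alone. Of the last 500 bases of its transcript, 96 lie opposite exons of *Gm12223*, which was not analysed here. *Csf3* (chromosome 11, 98701263 to 98703629, plus strand), which encodes G-CSF, had 0, 11 and 36 counts in Txnip-/- against 0, 1 and 0 in WT libraries. So *Csf3* tags were above the floor in 2 of 3 Txnip-/- libraries and in 0 of 3 WT libraries, and Txnip-/- replicate 1 with 0 counts overlapped the WT libraries. *Csf3* was therefore left without a fold change.

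*Csf1r* encodes the receptor of both CSF1 and IL-34 and lies on chromosome 18 from 61100598 to 61132149 on the plus strand. *Csf1r* had 114, 112 and 171 counts in Txnip-/- against 384, 407 and 365 in WT libraries. All Txnip-/- libraries were below all WT libraries, and Txnip-/- replicate 3 was the highest of its group. Levels were 14.1 ± 3.64 CPM in Txnip-/- and 38.3 ± 0.761 CPM in WT LSECs. The WT level was thus 2.7-fold higher, and the log2 fold change was -1.44 with a standard error of 0.19. It was called under each of the 16 alternatives, with values from -1.67 (without Txnip-/- replicate 3) to -1.3 (without Txnip-/- replicate 2), and was -1.45 against WT replicate 3 alone. All of the last 500 bases of *Csf1r* transcripts can lie opposite exons of *Hmgxb3*, and whether strand was used in the counting is not given in the sources used here. *Hmgxb3* had 246, 223 and 226 counts in Txnip-/- against 236, 270 and 211 in WT libraries, which is a log2 difference of 0.065 ± 0.17 (SE; adjusted p = 0.932, edgeR). The part of *Hmgxb3* reads in the *Csf1r* count was not tested.

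*Csf2ra* and *Csf2rb* encode the alpha chain and the common beta chain of the GM-CSF receptor. *Csf2ra* (chromosome 19, 61223957 to 61228429, minus strand) had 20, 61 and 78 counts in Txnip-/- against 112, 118 and 19 in WT libraries. WT replicates 1 and 2 were high, and WT replicate 3 fell to the level of the lowest Txnip-/- library. The log2 fold change of -0.53 had a standard error of 0.52 and was not called. It turned to 1.47 (standard error 0.65) against WT replicate 3 alone, and without WT replicate 3 it was -0.98, so its direction rested on which WT libraries were used. *Csf2rb* (chromosome 15, 78325752 to 78353847, plus strand) had 28, 15 and 24 counts in Txnip-/- against 60, 45 and 22 in WT libraries. The same WT replicate 3 overlapped the Txnip-/- libraries. Its log2 fold change was -0.79 (standard error 0.53), also not called, and 0.045 against WT replicate 3 alone.

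**Figure D2:**
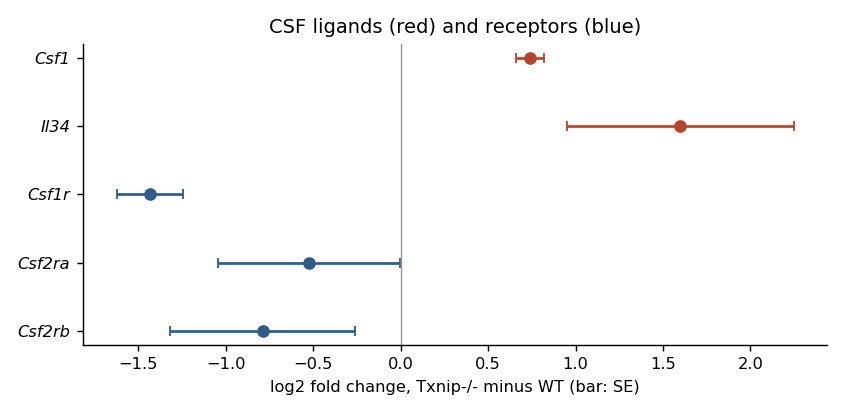
Log2 fold change (Txnip-/- minus WT) of the 5 CSF genes above the filter, with the standard error of the edgeR fit as bars, ligands in red and receptors in blue. Csf1 (0.74) and Csf1r (-1.44) have narrow bars on opposite sides of 0, and the bars of Il34, Csf2ra and Csf2rb are wider.

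Beside *Csf2rb*, on the opposite strand, lies *Csf2rb2*, a mouse gene for a beta chain that serves the IL-3 receptor (chromosome 15, 78282507 to 78305721). It had 0, 22 and 7 counts in Txnip-/- against 55, 69 and 53 in WT libraries, with all 3 WT libraries higher, WT replicate 3 included. Its log2 difference, -2.52 ± 0.72 (SE), did not pass the threshold (adjusted p = 0.112, edgeR). It passed with DESeq2, with no filter, and without Txnip-/- replicate 2. The transcripts of these near-identical neighbours share 10.7% of the 75-base words of *Csf2rb*, the length of the reads, but 0 of the 426 words in its last 500 bases. No exact word of read length was thus shared at the 3′ end of the longest coding transcript, while reads further upstream could have been counted for both genes. Whether reads with mismatches, or from other 3′ ends, were counted for both was not tested.

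*Csf3r* (chromosome 4, 126024550 to 126044440, plus strand), the neutrophil receptor for CSF3, had 6, 1 and 1 counts in Txnip-/- against 1, 1 and 0 in WT libraries. Only Txnip-/- replicate 1 was above the floor of 3 counts, and no difference was detectable at this depth. Neutrophil markers were near the floor as well, with 0 of 9 measured markers above the filter, 5 of them at 0 in every library, and a summed level of 0.782 to 2.24 CPM in Txnip-/- and 0.423 to 1.56 CPM in WT libraries. *Cxcr2*, the marker with the highest mean over all 6 libraries, had 3 to 7 counts in Txnip-/- and 2 to 9 in WT libraries. *S100a8*, which had the higher mean within Txnip-/- LSECs, had 0, 11 and 13 counts in Txnip-/- against 0, 7 and 0 in WT libraries. Its tags were thus in Txnip-/- replicates 2 and 3 and in WT replicate 2. *S100a9* had 0, 4 and 0 counts in Txnip-/- against 4, 0 and 0 in WT libraries. The part of neutrophils in the *Csf3* counts was not tested.

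To ask whether ligand and receptor moved apart, *Csf1* was divided by *Csf1r* within each library, a ratio that does not depend on library size or scaling. QuantSeq gives tags near the polyadenylated end and not tags along the transcript, so the ratio counts transcripts without a term for length, although its absolute value depends on how well each 3′ end is captured. There were 51.9, 51.8 and 34.3 tags of *Csf1* per tag of *Csf1r* in Txnip-/- against 10, 9.63 and 9.81 in WT libraries. The 3 WT libraries were nearly equal, and even Txnip-/- replicate 3, with the lowest ratio of its group, was well above them. On the log2 scale the mean was 5.49 ± 0.34 in Txnip-/- LSECs and 3.29 ± 0.027 in WT LSECs, a difference of 2.20 (standard error 0.20) or 4.59-fold. When any 1 library was left out the difference lay between 2.10 and 2.40. Of the log2 difference, the larger portion came from the lower receptor (-1.44) and the smaller from the higher ligand (0.74).

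**Figure D3:**
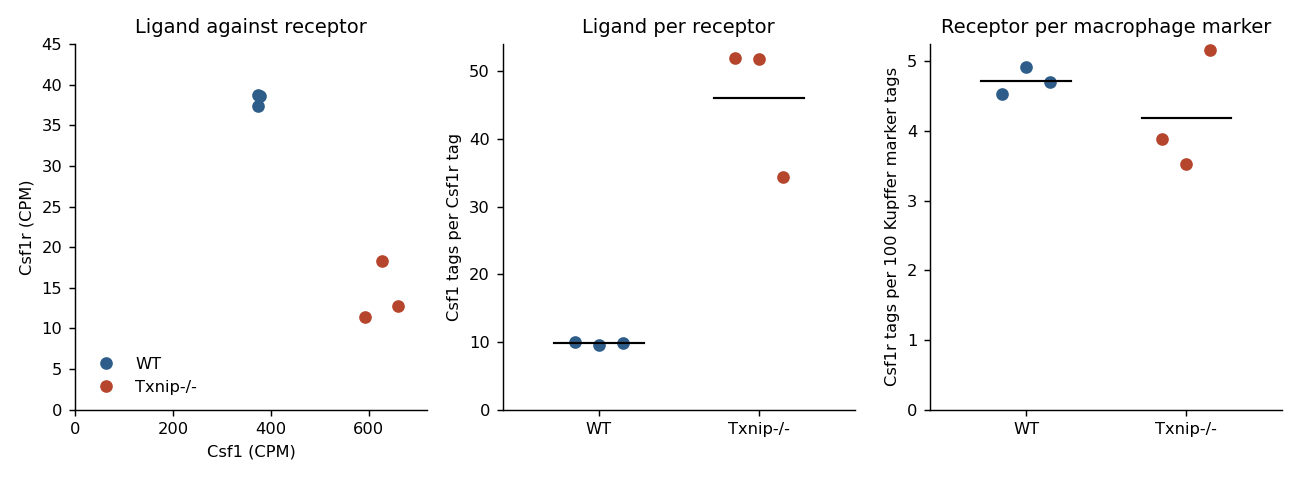
Left, Csf1 against Csf1r in CPM with 1 point per library; middle, Csf1 tags per Csf1r tag; right, Csf1r tags per 100 tags of 18 Kupffer cell and macrophage markers, with lines at the means of 3 libraries. The ratio of ligand to receptor was 9.63 to 10 in WT and 34.3 to 51.9 in Txnip-/- libraries, while receptor per macrophage marker overlapped between the genotypes (4.53 to 4.91 and 3.53 to 5.16).

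*Csf1r* is a gene of macrophages rather than endothelium, so Kupffer cell and macrophage markers were set beside it. Of 18 markers 15 passed the filter, all 15 had lower means in Txnip-/- LSECs, and 12 fell by the test, with a median log2 fold change of -1.48. The scavenger receptor *Cd163* fell from 55.9 ± 3.71 to 13.3 ± 0.354 CPM (log2 fold change -2.07, adjusted p = 5.48e-07, edgeR), and the complement receptor *Vsig4* from 76.4 ± 7.85 to 27.4 ± 4.71 CPM (-1.48, adjusted p = 1.18e-05, edgeR). *Adgre1*, which encodes F4/80, had 10, 10 and 42 counts in Txnip-/- against 96, 90 and 82 in WT libraries (-2.00, adjusted p = 0.0495, edgeR). Its call was lost in 5 of 16 alternatives, namely without Txnip-/- replicate 1 or 2, without WT replicate 1 or 2, and against WT replicate 3 alone. The Kupffer cell lectin *Clec4f* had a log2 fold change of -1.14 (adjusted p = 0.0917, edgeR). *Ctss*, *Marco*, *C1qa*, *Cd5l*, *C1qb* and *C1qc* also fell, by 0.99 (*Cd5l*) to 1.75 (*Ctss*) on the log2 scale, and *Timd4*, *Fcgr1* and *Ms4a7* were below the filter.

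The summed level of the 18 macrophage markers was 324 to 354 CPM in the Txnip-/- libraries and 790 to 825 CPM in the WT libraries, so it moved with *Csf1r*. Per 100 tags of these markers there were 3.88, 3.53 and 5.16 tags of *Csf1r* in Txnip-/- against 4.53, 4.91 and 4.7 in WT libraries. These ranges overlapped, and the difference was -0.18 (standard error 0.17) on the log2 scale against -1.44 for *Csf1r* itself. In such bulk samples fewer cells of a type and less RNA per cell cannot be told apart. Markers of the other myeloid cells that carry CSF receptors were few. Of 8 monocyte markers 3 passed the filter and 0 were called by edgeR or DESeq2 (1, *Plac8*, at an unadjusted p below 0.05), with *Ly6c2* and *Ccr2* at 0 in all libraries and *Ace* the most abundant (11.6 ± 5.3 CPM in Txnip-/- and 15 ± 1.31 CPM in WT). Of 9 dendritic cell markers 3 passed and 0 were called by either tool, with *Clec9a*, the 1 gene at an unadjusted p below 0.05, the most abundant (10.1 ± 3.5 and 15.2 ± 1.29 CPM).

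Stellate cells and fibroblasts are the other known source of CSF1, and their markers were set beside *Csf1*. All 11 of 13 markers that passed the filter had higher means in Txnip-/- LSECs (median log2 fold change 0.88), and 2 rose by the test. Levels of 4 of the 11 were higher in Txnip-/- LSECs without overlap between the genotypes, against 8.43% of all genes tested. Several of these markers had few counts, and such genes can pass the filter through the genotype in which they are higher. The count of directions is therefore a description. The proteoglycan *Dcn* rose from 15.4 ± 1.55 to 30.6 ± 2.66 CPM (log2 fold change 0.99, adjusted p = 0.00497, edgeR), and the smooth muscle actin *Acta2* from 5.22 ± 0.912 to 14.5 ± 1.87 CPM (1.47, adjusted p = 0.00677, edgeR). *Acta2* lost its call without WT replicate 1 and against WT replicate 3 alone. The summed level of the list was 68.2 to 81.1 CPM in Txnip-/- libraries and 33.2 to 38.7 CPM in WT libraries. The part of these cells in the *Csf1* difference was not tested.

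Markers of other cells that could be carried along were counted in the same way. Of 10 hepatocyte markers 6 passed the filter and 0 were called by edgeR or DESeq2 (1, *Apoa1*, at an unadjusted p below 0.05), with *Alb* at 20.3 ± 7.37 CPM in Txnip-/- and 22.4 ± 1.78 CPM in WT LSECs. Of 6 cholangiocyte markers 2 passed, and 0 were called by either tool or had an unadjusted p below 0.05, the most abundant being *Cftr* at 1.42 ± 1.24 and 1.43 ± 0.322 CPM. T, NK and B cells, which can make CSF2, were close to absent, with 0 of 11 measured markers above the filter, 9 at 0 in every library and *Cd79a* at 0 to 4 counts. Among the 18 LSEC and endothelial markers, which all had lower means in Txnip-/- LSECs (median log2 fold change -0.34), 2 fell by the test, the scavenger receptor *Stab1* (-0.46, adjusted p = 0.00984, edgeR) and the mannose receptor *Mrc1* (-0.76, adjusted p = 0.000718, edgeR). *Stab1* lost its call without Txnip-/- replicate 2 or 3 and with a replicate block. At an unadjusted p below 0.05 there were 12 of the 18, among them *Lyve1*, *Fcgr2b*, *Dnase1l3*, *Tie1* and *Eng*. The share of all genes tested below that p was not counted, so nothing is read from the 12. Of the 18, 9 were lower without overlap between the genotypes, against 8.94% of all genes tested. *Lyve1* was not among these 9, since WT replicate 3 overlapped the Txnip-/- libraries. The summed level of the list was 6085 to 6491 CPM in Txnip-/- and 7230 to 8891 CPM in WT libraries. *Stab2* had a log2 fold change of -0.36 and did not reach the fold threshold (adjusted p = 0.0448, edgeR).

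**Figure D4:**
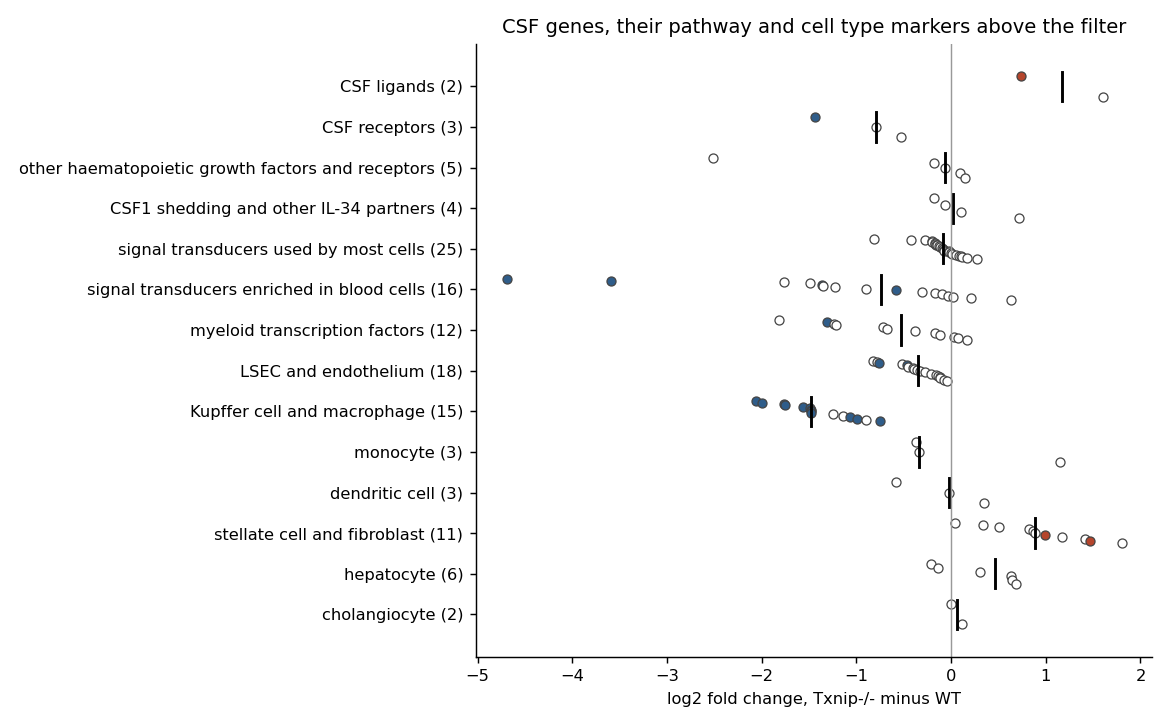
Log2 fold change (Txnip-/- minus WT) of genes above the filter in each list, with the number of genes in brackets, a black bar at the median, red points called higher, blue points called lower and open points not called. The lists of transducers of blood cells, myeloid factors and macrophage markers lie to the left like Csf1r, the stellate list to the right like Csf1, and the transducers used by most cells lie around 0. The endothelial list lies to the left as well, with a median of -0.34.

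Other growth factors of blood cells, and their receptors, were set beside the CSF genes. *Kitl*, the ligand of KIT made by endothelium, had 491, 391 and 397 counts in Txnip-/- against 413, 478 and 357 in WT libraries (log2 fold change 0.15, adjusted p = 0.792, edgeR). *Flt3l*, the ligand of FLT3, stood at 9.72 ± 3 and 9.14 ± 2.27 CPM (0.092, adjusted p = 0.947, edgeR). Of the 13 in this list, which holds *Csf2rb2* too, 5 passed the filter, and *Il3*, *Il5* and *Epo* were among those with 0 counts in all libraries. By edgeR 0 of the 5 were called, and 1, *Csf2rb2*, had an unadjusted p below 0.05 and was called by DESeq2. Among genes that shed CSF1 or bind IL-34, 4 of 5 passed the filter, and 0 were called by edgeR or DESeq2 or had an unadjusted p below 0.05. *Adam17*, the protease that releases membrane-bound CSF1, stood at 100.1 ± 1.52 and 113.6 ± 12 CPM (-0.18, adjusted p = 0.542, edgeR). *Sdc1*, a syndecan that binds IL-34, stood at 1.49 ± 0.564 and 0.901 ± 0.372 CPM (0.72, adjusted p = 0.817, edgeR), and *Ptprz1*, a phosphatase receptor of IL-34, had at most 13 counts.

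Downstream of the receptors, genes were counted in lists by the cells that use them. Of 26 signal transducers found in most cells, such as *Grb2*, *Jak2* and *Stat5b*, 25 passed the filter and 0 were called by edgeR or DESeq2 (7 with higher and 18 with lower means, median log2 fold change -0.082). The ubiquitin ligase *Cbl* was the 1 gene with an unadjusted p below 0.05. Of 18 transducers enriched in blood cells 16 passed, 0 rose and 4 fell, with a median of -0.74. *Tyrobp*, the adaptor DAP12, fell from 14.4 ± 2.05 to 5.6 ± 0.549 CPM (log2 fold change -1.36, adjusted p = 0.00978, edgeR). *Fcer1g*, the adaptor FcR gamma, fell from 72.5 ± 7.12 to 48.5 ± 5.95 CPM (-0.58, adjusted p = 0.0295, edgeR). *Vav1*, an exchange factor for Rac, had 4 counts in each Txnip-/- library and 49, 47 and 63 in the WT libraries (adjusted p = 0.00317, edgeR). The PI3-kinase subunit *Pik3r5* had 1, 0 and 1 counts against 28, 11 and 26 (adjusted p = 0.0383, edgeR). *Vav1* and *Pik3r5* passed the filter through the WT libraries, in which they were higher. The number of genes that fell in this list is therefore a description, and nothing is read from it. *Vav1* kept its call under all 16 alternatives. *Pik3r5* lost it in 9, among them each fit with a library left out. *Tyrobp* lost its call without Txnip-/- replicate 1, without WT replicate 1 or 2 and against WT replicate 3 alone. *Fcer1g* lost it without Txnip-/- replicate 2 or 3, without WT replicate 1 and with a replicate block.

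Of 14 myeloid transcription factors 12 passed the filter, with a median log2 fold change of -0.53. *Spi1*, which encodes PU.1, had 36, 39 and 20 counts in Txnip-/- against 82, 77 and 81 in WT libraries, without overlap, but did not pass (-1.23, adjusted p = 0.137, edgeR). *Cebpb* and *Irf8*, which were more abundant here, had log2 fold changes of 0.033 (adjusted p = 0.944, edgeR) and -0.17 (adjusted p = 0.58, edgeR).

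Genes with a pattern most like *Csf1* or *Csf1r* were sought among 9361 genes with a mean of at least 5 CPM, by Pearson's correlation of log2 CPM over the 6 libraries. These values are a description, since the libraries fall into 2 genotypes and share their scaling. Among the nearest to *Csf1* were *Rpl6* (r = 0.996), *Cxcl1* (0.994), *Fstl1* (0.991) and *Cxcl12* (0.99). Of these, *Cxcl1* and *Cxcl12* encode chemokines. Nearest to *Csf1r* were *Saa3* (r = 0.995), *Mylip* (0.995), *Cd300lf* (0.995), *Adgrg1* (0.989) and *Cadm1* (0.986). *Cd300lf*, a receptor of myeloid cells, stood at 3.25 CPM in Txnip-/- and 12.1 CPM in WT LSECs.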

How the data were processed

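The deposited files give, per library, the authors' whole-number counts by gene symbol. Single-end QuantSeq 3′ mRNA-Seq reads of 75 bases were aligned with Bowtie2 and counted with Bedtools coverage over unique and multiple alignments, without normalization. The submitters' processing notes name build mm10. Tool versions, annotation and use of strand are not given in the sources used here. Multiple alignments give reads to each copy of near-identical genes. No molecular identifiers are named, and the floors given account for counting error only. Counts summed to 9147764 to 10193952 per library, and 3 counts were taken as the floor. Of 23282 rows, 44 repeat a symbol and were kept apart.

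In R 4.3.3, edgeR 4.0.16 was run with filterByExpr (11583 genes), TMM scaling, glmQLFit and glmQLFTest on a design of genotype alone, p-values were adjusted by Benjamini-Hochberg, and the script was tested on simulated data. Standard errors were obtained as the log2 fold change divided by the root of F. The log2 ratio of *Csf1* to *Csf1r* used a prior count of 0.5. Alternatives were DESeq2 1.42.0, RLE, upper quartile or no normalization factors, no filter or a mean of 10 counts, no fold threshold, *Rn45s* left out, a replicate block, a term for WT replicates 1 and 2, and each library left out. The last term leaves WT replicate 3 as the comparison.

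The members and lists were chosen with earlier results of these data known. Named genes were the 8 members, up to 8 called genes per list by p, set endothelial, Kupffer cell, growth factor and IL-34 genes, the most abundant gene of the other marker lists, neighbours at 3′ ends, and the 5 genes most like *Csf1* and *Csf1r*. *Cdh5*, *Spi1*, *Cebpb*, *Irf8*, *S100a8*, genes named for an unadjusted p, and markers given at 0 or below the filter were named after their values were seen. Gene positions were looked up by symbol in GENCODE M21 (GRCm38). A few genes that the rule names are not reported here.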

Additional observations from a re-analysis of the deposited data

How the results depend on the processing

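*Csf1* and *Csf1r* kept their direction and call under all 16 alternatives, and no other member was called in any. Against WT replicate 3 alone, by a term for WT replicates 1 and 2, *Csf2ra* turned to 1.47 and *Csf2rb* to 0.045 on the log2 scale; the cause was not tested. Leaving out each library in turn gave a log2 difference in the ratio of *Csf1* to *Csf1r* of 2.10 to 2.40.

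The 167 genes called in all (59 higher, 108 lower) became 301 (106 higher, 195 lower) with no filter, which tests more genes. Without normalization factors 35 were higher, and 96 against WT replicate 3 alone. With each library left out the number was 89 to 301, the highest without WT replicate 3 (29 to 110 higher, 60 to 191 lower). The 5 called pathway genes became 8 with no filter, 3 against WT replicate 3 alone and 2 to 5 with a library left out. The 2 called endothelial markers became 5 without normalization factors, 7 with no filter, 4 against WT replicate 3 alone and 1 to 6 with a library left out. The 2 called stellate markers became 1 against WT replicate 3 alone and 1 to 3 with a library left out. Of the remaining marker lists 1 gene, *Plac8*, was called with no filter. Called Kupffer cell markers numbered 11 to 12 over the fits that left out a library.

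Same-numbered libraries did not deviate together (correlations of -0.030, 0.017 and -0.047). These values gave no sign of pairing by number, but they cannot settle whether such libraries were prepared together. With a replicate block 108 genes were called, 68 of them lower, with 3 pathway genes and 1 endothelial marker. The log2 difference in the ratio of *Csf1* to *Csf1r* stayed at 2.20. A block cannot change it when each replicate number has 1 library of each genotype, so nothing is read from this.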
